A study of Homo sapiens with 14 samples.

Results

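The libraries described here were the 2 of control foregut (FG_ctl) and the 2 of undifferentiated human embryonic stem cells (hESC), chosen by their titles, which are 4 of the 14 samples of the series. All came from H9, an established hESC line. The hESC were grown on matrigel in mTSER Plus and had not been differentiated. The foregut cells had followed a commercial pancreatic progenitor protocol for 6 days, 3 of endoderm and 3 of foregut medium, without an sgRNA. The 3 libraries of day 3 endoderm expressing dCAS9-KRAB without an sgRNA (DE_ctl) had been treated with CHIR and activin and served as the time between. That endoderm was made with another medium than the endoderm step of the foregut, so it was not the parent culture of the foregut cells. The foregut samples carry a status label of hESC and the hESC medium beside their foregut titles, and the marker genes given below went against that status. No label says whether hESC or FG_ctl carried dCAS9-KRAB, whether the replicates were separate cultures or which libraries shared a batch. The p-values therefore measure the spread between these libraries, which may be technical, and a batch and a condition cannot be told apart.

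RNA-seq reads per gene numbered 23539769 and 22557988 in the hESC libraries, 16376503 to 21534304 in endoderm and 32641546 and 37152434 in foregut. Levels are given as CPM, counts scaled to the gene reads of each library, and adjusted by TMM, always in the order of the replicate numbers. Across genes, log2 CPM correlated at 0.989 between the hESC libraries and at 0.952 between the foregut libraries. Low counts in foregut had a broad peak that hESC and endoderm lacked. Among integrants, which are single insertions of a transposable element (TE), the most frequent count of 4 or more was 9 in both foregut libraries and 4 in every hESC and endoderm library. Integrants with exactly 1 read made up 5.37% and 4.23% of those with a read in foregut, against 51.0% and 61.0% in hESC. A foregut count of 0 was therefore bounded at 3 times the most frequent count of 9, which is 27 reads over both libraries or 0.390 CPM. The bound in hESC was 3 reads or 0.0628 CPM. Folds written as "at least" use these bounds, which cover counting error only, and the cause of the shifted low counts was not tested.

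**Figure D1:**
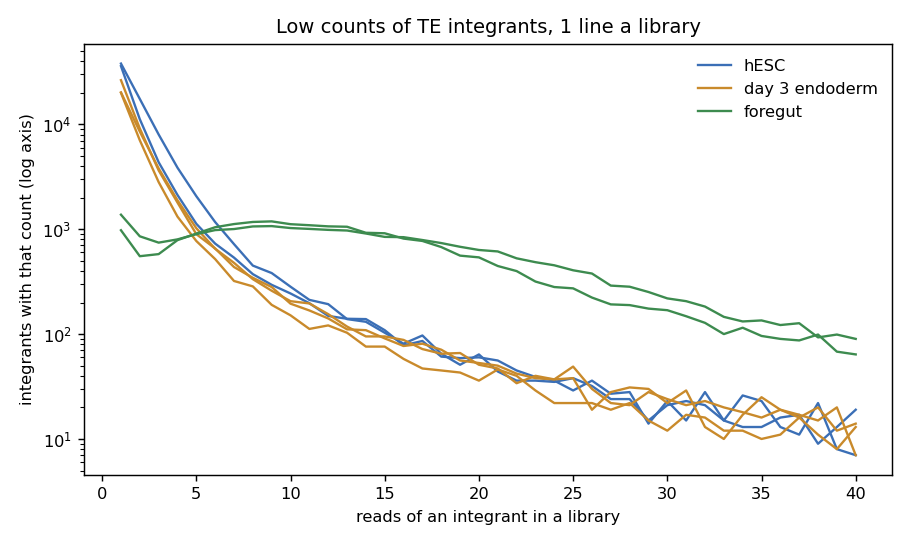
Number of TE integrants (y axis) against the read count of an integrant (x axis), with 1 line per library of hESC, endoderm and foregut. Both foregut lines have a broad peak at 9 reads and lie far below the others at 1 read, whereas hESC and endoderm lines fall from 1 read onwards. In foregut replicate 1 the line is still higher at 1 read (1376 integrants) than at 9 (1071).

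Embryonic stem cells hold a network of transcription factors around OCT4 (POU5F1), SOX2 and NANOG, and they transcribe retroviral elements of the HERVH family from LTR7 promoters. Definitive endoderm forms under Nodal or activin signals and passes through a mesendoderm state with EOMES, MIXL1 and CER1. Foregut endoderm then patterns under retinoic acid, FGF, BMP and Hedgehog signals into the fields of pancreas, liver, lung and stomach, with FOXA, GATA and HNF factors active throughout.

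Of 22418 genes tested with edgeR's quasi-likelihood test, 3932 were higher in foregut than in hESC (17.5%) and 4155 were lower (18.5%), 36.1% in all. A call needed a fold over 2 and, after Benjamini-Hochberg adjustment over all genes, a p below 0.05. By the same rule 19.1% of genes were called between endoderm and hESC and 31.2% between foregut and endoderm. Groups did not overlap for 66.3% of genes. A gene was called kept when the 95% interval of its log2 difference lay within 1 on either side of 0 and both groups had at least 1 CPM, which held for 2272 genes (10.1% of those tested, out of 12093 at that level). The kept count was 1209 without hESC replicate 1 and 1183 without hESC replicate 2. Of the 3932 higher genes, 1774 were called in the step from endoderm to foregut alone and 786 in the step from hESC to endoderm alone. A further 382 rose in both steps. Of the 4155 lower genes, 1908 were called in the step from endoderm to foregut alone and 744 in the earlier step alone, while 333 fell in both. The levels by library show the main courses, from genes lost late such as POU5F1 to genes gained late such as TTR.

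**Figure D2:**
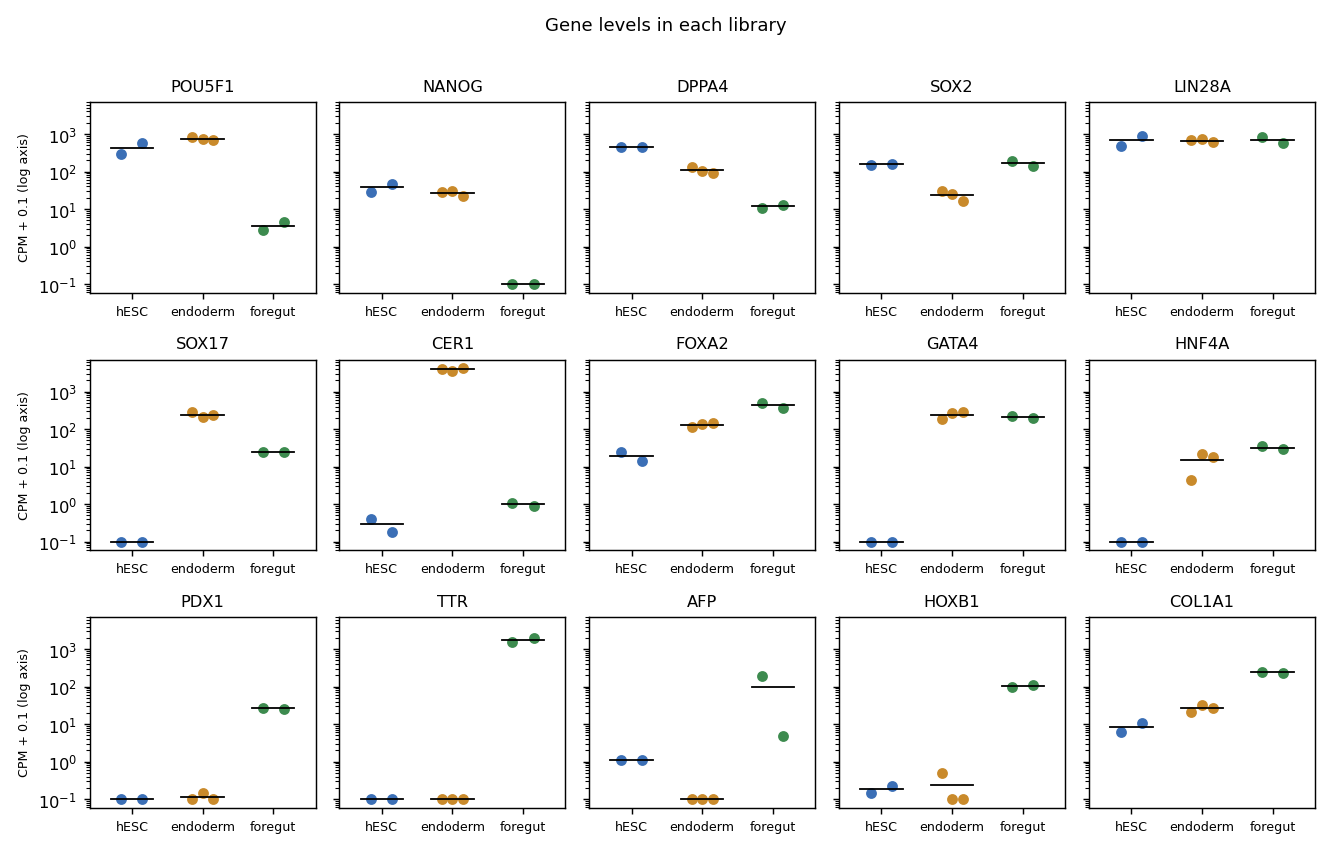
CPM plus 0.1 on a log axis (y) for 15 genes in hESC, endoderm and foregut; each point is a library and each black line a group mean. POU5F1 and NANOG stay high in endoderm and are low or at 0 in foregut, SOX2 is low in endoderm alone, and TTR and HOXB1 appear in foregut.

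Most pluripotency genes were lost. Of 30 tested, 25 were lower in foregut, 2 were kept and 3 were not called, with a median log2 difference of -3.80 against 0 over all genes. The summed level of the list was 5302 and 6242 CPM in hESC, 4027 to 4610 in endoderm and 1332 and 1026 in foregut. As these are bulk samples, fewer cells of a type and less RNA per cell cannot be told apart. POU5F1 (ENSG00000204531, chromosome 6, 31132114 to 31148508, GRCh37), the central factor of the network, was at 291 and 568 CPM in hESC, at 832, 719.9 and 674 in endoderm and at 2.59 and 4.33 in foregut. All endoderm libraries lay above the hESC libraries, and both foregut libraries lay below them (log2 difference from hESC -6.95 ± 0.40 SE, adjusted p = 1.02e-07). NANOG (ENSG00000111704, chromosome 12, 7940390 to 7951742) was at 28.4 and 46.6 CPM in hESC and at 22.3 to 30.6 in endoderm, and no read fell on it in foregut. That is at least 96.0-fold lower (adjusted p = 1.42e-07). The near-identical copy NANOGP8 was also at 0 in foregut, and the 2 cannot be told apart with certainty. PRDM14, a repressor that guards the naive network, fell from 38.1 and 64.1 CPM to 0 in both foregut libraries, at least 131-fold.

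Other pluripotency genes had begun to fall by day 3. DPPA4, a chromatin protein of early embryos, stood at 444 and 461 CPM in hESC, at 91.9 to 129 in endoderm and at 10.4 and 13.0 in foregut (log2 difference -5.27 ± 0.27, adjusted p = 6.11e-08). DNMT3B, the de novo DNA methyltransferase, fell from 1139 and 1193 CPM through 185 to 256 to 20.9 and 18.6 (-5.88 ± 0.26, adjusted p = 2.28e-08). TDGF1, the Nodal co-receptor, went the other way at day 3, from 324 and 286 CPM to 534 to 834, before it fell to 4.81 and 5.07 (-5.95 ± 0.30, adjusted p = 4.8e-08). OTX2, a homeobox factor of primed pluripotency and of anterior endoderm, peaked at 473 to 542 CPM in endoderm. Its foregut levels of 28.5 and 23.8 CPM lay below the 85.2 and 69.1 of hESC (-1.56 ± 0.22, adjusted p = 9.48e-05).

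The pluripotency members that were kept were SOX2 and LIN28A. SOX2 was at 153 and 161 CPM in hESC, at 29.3, 25.2 and 16.0 in endoderm and at 195 and 142 in foregut. Foregut and hESC overlapped (log2 difference 0.10, 95% interval -0.50 to 0.71), while endoderm lay below both (-2.74 ± 0.26 against hESC). SOX2 also marks foregut endoderm, where it opposes hindgut genes. LIN28A, which blocks maturation of the let-7 microRNAs, was at 472 and 913 CPM in hESC, at 596 to 716 in endoderm and at 819 and 576 in foregut (0.01, interval -0.61 to 0.63). Its paralog LIN28B fell (log2 difference -2.70). DPPA2, FGF4 and KLF4 were not called. Of 11 markers of undifferentiated hESC, 10 fell and 1, LIN28A, was kept.

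Transcripts linked to HERVH were at or near 0 in foregut. Of 7 tested, 6 fell and 1 was not called, and the median log2 difference was -7.81, or -3.24 with unread genes at their bounds. ESRG, a long non-coding RNA begun in a HERVH element, was at 64.6 and 67.4 CPM in hESC, at 36.7, 25.2 and 19.5 in endoderm and at 0 in foregut. It was at least 169-fold lower (adjusted p = 9.31e-08). SCGB3A2, a secretoglobin, was at 39.3 and 50.6 CPM in hESC and at 5.38 to 9.91 in endoderm and had no foregut read, at least 115-fold lower. LINC00678 was at 65.2 and 62.7 CPM in hESC and at 9.37 to 21.2 in endoderm, and 1 foregut library held 1.72 and the other none (-6.14 ± 0.87, adjusted p = 0.000111).

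The LTR7 and HERVH-int subfamilies themselves fell as well. LTR7, the long terminal repeat that serves as the promoter of HERVH, summed to 6609 and 7467 CPM in hESC, to 5006, 5022 and 3950 in endoderm and to 55.9 and 42.6 in foregut. Both foregut libraries lay below every hESC and endoderm library (log2 difference -7.16 ± 0.39, adjusted p = 2.58e-08). HERVH-int, the internal part, stood at 6669 and 7536 CPM in hESC, at 4117 to 5194 in endoderm and at 144 and 97.5 in foregut (-5.88 ± 0.38, adjusted p = 7.31e-08). These reads lay in integrants that join both names, and LTR7 integrants of a single name were not called (-0.0412). Of 200 HERVH-int integrants with a mean of at least 1 CPM in hESC, 162 had no read in foregut and 198 had a lower mean there. In endoderm 162 of them had a lower mean than in hESC. Among those at 10 CPM or more in hESC, the median integrant held 40.3% of its hESC level in endoderm. Of the 51 at 10 CPM or more, 34 had no foregut read and 1 was still at 1 CPM or more, at chr4:180087630-180091722. That integrant was at 543 and 484 CPM in hESC and at 2.52 and 0.256 in foregut. Integrants that overlap no exon were also tested singly, and 170 of 597 tested that carry the LTR7 name were lower (0.718% of all integrants tested were lower).

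The 5 called integrants with the largest falls were all of the form LTR7, HERVH-int, LTR7, and none had a read in foregut. The integrant at chr1:223197738-223203498, 18401 bases from DISP1, was at 753 and 931 CPM in hESC and at 274, 419 and 324 in endoderm, and was at least 2158-fold lower in foregut. At chr3:112137259-112142212, 40601 bases from BTLA, levels were 639.7 and 756 CPM in hESC and 262 to 381 in endoderm, for a fall of at least 1788-fold. The remaining 3 lay on chromosomes X (113701125 to 113706984), 13 (43442140 to 43447294) and 12 (14858355 to 14863574, within the long non-coding GUCY2C-AS1), with folds of at least 746, 478 and 415. Within each of these 5 integrants, the first and the last 450 bases matched at 91.6 to 97.1% of positions.

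**Figure D3:**
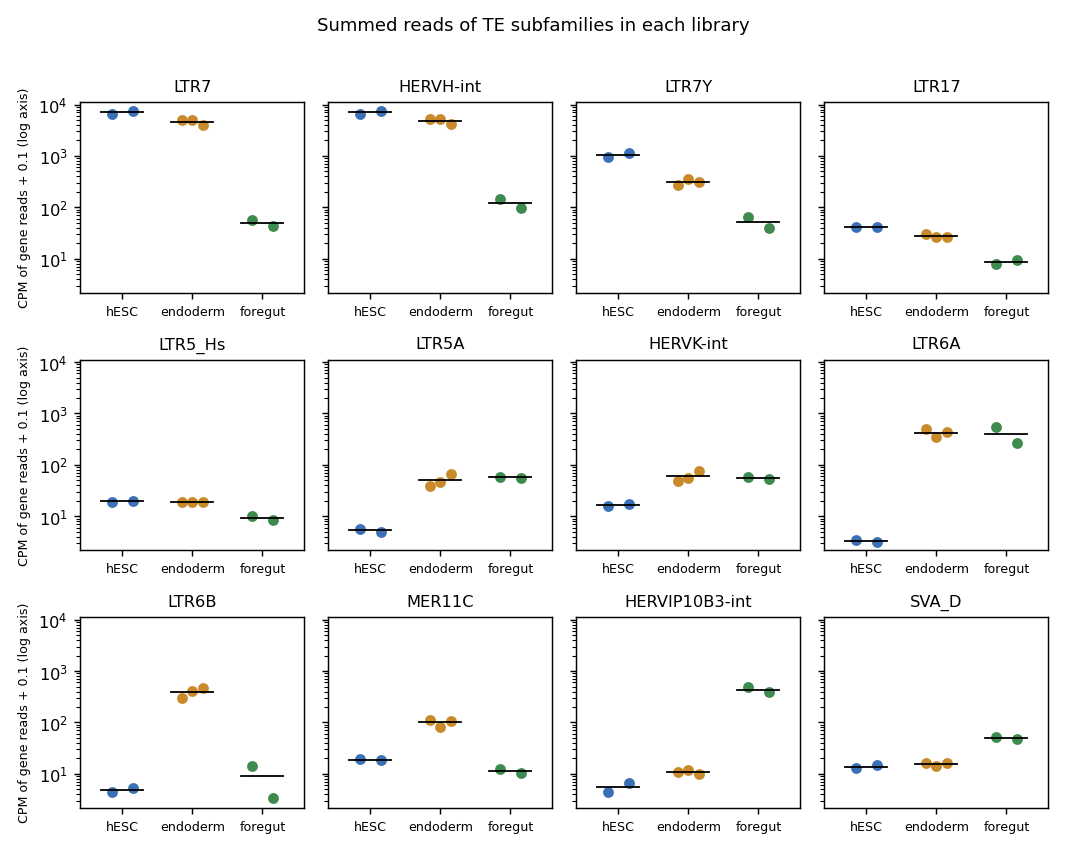
CPM of 12 TE subfamilies on a log axis (y) in hESC, endoderm and foregut; points are libraries and black lines group means. LTR7 and HERVH-int drop between endoderm and foregut, LTR6A and LTR5A are high in endoderm and foregut, and HERVIP10B3-int is high in foregut alone.

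The FGF pathway, which maintains hESC through ERK signalling, was lower in foregut from ligand to target. Of 24 genes tested, 16 fell, 2 were kept, 6 were not called and 0 rose. The median log2 difference was -2.80, or -1.74 with unread genes at their bounds. The ligand FGF2 was at 47.1 and 59.4 CPM in hESC, at 12.2, 4.82 and 3.88 in endoderm and at 1.89 and 1.77 in foregut (-4.86 ± 0.51, adjusted p = 1.09e-05). FGF19 fell as well (-4.50 ± 0.43). Among receptors, FGFR1 fell from 283 and 302 CPM to 71.9 and 80.4 (-1.94 ± 0.22, adjusted p = 1.77e-05), whereas FGFR2 was kept at 32.5 and 36.2 in hESC and 42.8 and 38.4 in foregut, and FGFR3 was kept too. Targets of the pathway fell by differing amounts. SPRY1 fell by 1.71 on the log2 scale, a call lost without hESC replicate 1 (adjusted p = 0.0687), and SPRY2 fell by 2.38. ETV4, an ETS factor induced by FGF, was at 262 and 264 CPM in hESC, at 142 to 156 in endoderm and at 6.53 and 5.25 in foregut (-5.48 ± 0.26, adjusted p = 2.56e-08). SPRY4, a feedback inhibitor, was at 142 and 102 CPM in hESC, at 158 to 213 in endoderm and at 5.84 and 4.71 in foregut (-4.54 ± 0.29). DUSP6, the ERK phosphatase, had fallen by day 3 and fell again, from 276 and 199 CPM to 33.2 to 79.3 and then to 14 or less (-4.55 ± 0.47).

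Proliferation genes fell together. Of 33 cell cycle genes tested, 23 were lower in foregut, 4 higher, 3 kept and 3 not called, with a median log2 difference of -1.90. CCNA2, the cyclin of S and G2 phase, was at 254 and 226 CPM in hESC, at 111 to 136 in endoderm and at 24.0 and 26 in foregut (-3.26 ± 0.23, adjusted p = 5.48e-07). MCM4 and MCM7, subunits of the replicative helicase, fell by 3.35 and 2.96 on the log2 scale. MYC was at 31.0 and 41.5 CPM in hESC and at 19.3 to 26.5 in endoderm, and in foregut 1 library held none and the other 0.615 (adjusted p = 9.87e-06). MYCN fell from 51.2 and 55.5 CPM to 3.02 and 1.08. CDKN1C, an imprinted inhibitor of cyclin-dependent kinases, rose from 24.8 and 19.6 CPM to 188 in both foregut libraries (3.09 ± 0.25, adjusted p = 1.7e-06), and endoderm at 15.1 to 20.3 CPM was not called against hESC. CCND2, a G1 cyclin, was up from day 3 on. The higher calls of CDKN1A and CDKN2A were lost without either hESC library (adjusted p 0.0665 to 0.167), and MKI67 was not called (-0.82 ± 0.32, adjusted p = 0.0582). CDK2, CDK4 and CDK6 were kept.

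Regulators of DNA methylation and of KAP1-dependent silencing were tested as further lists. Of 8 DNA methylation genes, 4 fell, 1 rose and 3 were not called. Besides DNMT3B, the maintenance enzyme DNMT1 fell from 67.7 and 116 CPM to 22.2 and 29.4 (-1.83 ± 0.30, adjusted p = 0.000309). The demethylating oxygenase TET1 fell by 2.52 on the log2 scale. The cytidine deaminase APOBEC3B rose from 1.08 and 1.18 CPM to 8.49 to 9.30 in endoderm and 9.85 and 13.1 in foregut (3.34 ± 0.36). Of 14 KAP1 and silencing genes, 3 fell, 4 were kept and 7 were not called, a share of falls close to that over all genes. TRIM28, which encodes KAP1, was at 1188 and 1144 CPM in hESC and at 518 and 786 in foregut and missed the fold limit (-0.84 ± 0.23, adjusted p = 0.0104), and SETDB1, its histone methyltransferase partner, was kept. SUV39H2 and CBX3 fell by 2.22 and 1.49 on the log2 scale.

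Among protein-coding genes outside these lists, the largest falls were of genes at 0 in both foregut libraries. NLRP2, an inflammasome protein also found in oocytes, was at 128 and 125 CPM in hESC and at 59.1, 86.4 and 76.2 in endoderm, and was at least 325-fold lower in foregut. THBS2, a matrix thrombospondin, was at 68.4 and 64.5 CPM in hESC and at 20.4 or less in endoderm, and was at least 170-fold lower. HES3, a Notch family repressor, had already left by day 3, with over 19 CPM in both hESC libraries and 0 to 0.278 in endoderm.

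The gained side began with the endoderm factors. Of 19 definitive endoderm genes tested, 16 were higher in foregut than in hESC, 0 lower and 3 not called, with a median log2 difference of 4.51. GATA4, a zinc finger factor of endoderm and heart, had no read in hESC and was at 187, 263 and 279 CPM in endoderm and at 229 and 196 in foregut, at least 3382-fold above hESC (adjusted p = 2.25e-08). GATA6 was also unread in hESC, was at 327 to 435 CPM in endoderm and fell back to 142 and 135 in foregut, which was still at least 2205-fold above hESC. SOX17, which marks the onset of definitive endoderm, was unread in hESC, stood at 208 to 286 CPM in endoderm and was at 24.0 and 24.7 in foregut. FOXA2, a pioneer factor of endoderm, rose in both steps, from 24.0 and 14.0 CPM through 114 to 142 to 487 and 376 (4.51 ± 0.31, adjusted p = 3.88e-07). FOXA1 rose almost wholly in the second step, from 3.97 and 3.49 CPM through 5.30 to 7.79 to 236 and 184 (5.81 ± 0.31). CXCR4, a chemokine receptor used to sort endoderm, was at 7.17 and 4.18 CPM, then at 244 to 365, then at 56.6 and 34.7.

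Foregut and gut tube genes rose. Of 34 tested, 25 were higher, 2 lower, 7 not called and 0 kept, with a median log2 difference of 4.84 (4.42 at bounds). HNF4A, a nuclear receptor of gut and liver epithelium, was unread in hESC, at 4.37, 21.6 and 18.2 CPM in endoderm and at 34.8 and 29.4 in foregut, at least 512-fold above hESC. PDX1, the factor of the pancreatic and duodenal field, was at 27.6 and 24.6 CPM in foregut, with no read in hESC and 0 to 0.0463 in endoderm (at least 416-fold, adjusted p = 5.1e-07). RFX6, of the gut and endocrine lineage, was at 63.8 and 43.2 CPM in foregut alone. MNX1, needed for the dorsal pancreatic bud, was at 63.3 and 58.6 CPM in foregut, against 7.37 to 7.94 in endoderm and 0 and 0.0812 in hESC (adjusted p = 5.81e-08). The lung and thyroid factor NKX2-1 had no foregut read. TBX1 and IRX1, of pharyngeal and proximal fields, were the genes that fell. TBX1 went from 6.86 and 5.93 CPM to 0 and 0.564.

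Most hepatic genes tested were higher. Of 22 hepatic genes tested, 16 were higher, 0 lower and 6 not called (median log2 difference 6.53), and 5 more, ALB among them, had too few reads to test. TTR (ENSG00000118271, chromosome 18, 29136972 to 29178796), the carrier of thyroid hormone and retinol, had no read in hESC or endoderm and was at 1573 and 1951 CPM in foregut, at least 28065-fold above hESC (adjusted p = 2.39e-08). APOA1, the main protein of high-density lipoprotein, was at 0.0864 and 0.0812 CPM in hESC and at 516 and 762 in foregut (12.81 ± 0.73). APOA2 went from 0.734 and 0.893 to 609 and 739 CPM. FGB, a fibrinogen chain, had 90.7 and 17.4 CPM in foregut and no read elsewhere. AFP, the fetal serum protein, was at 191 CPM in FG_ctl replicate 1 and at 4.82 in replicate 2, against 1.04 and 0.974 in hESC. Its call (6.60 ± 1.32, adjusted p = 0.00209) was lost without hESC replicate 1 (adjusted p = 0.0589) and without hESC replicate 2 (0.0604). Of 13 pancreatic genes tested, 5 were higher, 1 lower and 7 not called, and 5 more had too few reads to test. PDX1, RFX6 and MNX1 belong to the foregut list above as well, so the lists are not separate. The calls of SST and CPA1 (higher) and NEUROG3 (lower) were lost without hESC replicate 2. The higher count was 3 without hESC replicate 2, and NKX6-1 and PTF1A had no foregut read. PRSS1, a trypsinogen with close copies that reads may be shared with, rose from at most 0.0432 CPM through 17.4 to 41.2 to 476 and 565. Of 11 intestinal and hindgut genes, 3 rose and 2 fell, and CDX2, the hindgut factor, was among those that rose, with 25.0 and 12.3 CPM against 0.130 and 0.0406 in hESC.

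HOX genes rose at the 3′ end of the A and B clusters, which pattern the anterior trunk. Of 27 tested, 11 were higher, 2 lower and 14 not called (median 1.80), and 12 more had too few reads to test. HOXB1 was at 0.0432 and 0.122 CPM in hESC, at 0 to 0.402 in endoderm and at 100.0 and 108 in foregut (10.19 ± 0.74, adjusted p = 6e-07). HOXB2 was at 32.3 and 37.2 CPM, HOXA3 at 9.06 and 4.35 and HOXA2 at 4.44 and 3.76. Apart from HOXB7, every member that rose belonged to paralog groups 1 to 5. The higher calls of HOXA4 and HOXB7 were lost without either hESC library (adjusted p 0.0833 to 0.0962). HOXB13, at the far end of its cluster, fell from 3.06 and 3.25 CPM to 0.265 and 0.615.

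Genes of retinoic acid handling, which patterns the gut tube and induces anterior HOX genes, rose with them. Of 18 tested, 9 were higher, 2 lower, 3 kept and 4 not called (median 2.95, or 2.37 at bounds). RARB, a receptor that is itself a target, was at 0 and 0.0812 CPM in hESC, at 1.31 to 2.00 in endoderm and at 76.3 and 59.1 in foregut (adjusted p = 8.49e-08). DHRS3, a retinal reductase that limits retinoic acid, was at 5.79 and 3.53 CPM in hESC, at 1.16 to 2.56 in endoderm and at 417 and 542 in foregut (6.69 ± 0.40, adjusted p = 1.45e-07). CYP26A1, which degrades retinoic acid, was highest in endoderm, with 14.1 and 10.8 CPM in hESC, 1084, 803 and 698 in endoderm and 269.5 and 261 in foregut. The binding protein CRABP2 rose by 3.55 on the log2 scale.

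In the Nodal and TGF-beta pathway 6 of 23 genes rose, 6 fell, 4 were kept and 7 were not called, and 11 were high in endoderm alone. NODAL was at 1.94 and 2.23 CPM in hESC, at 158, 216 and 182 in endoderm and at 1.66 and 1.05 in foregut, and was not called between the end points. Its inhibitor LEFTY1, which has a close copy, was at 68.6 to 211 CPM in endoderm, at 4.58 and 2.03 in hESC and at 0 in foregut. FOXH1, the DNA-binding partner of the Nodal effectors, fell below hESC (-2.31 ± 0.26). TGFB2 went from 1.25 and 1.22 CPM through 0.0502 to 0.232 to 120.5 and 93.9 (6.43 ± 0.36, adjusted p = 9.33e-08). The receptor ACVR1B was kept.

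Among WNT genes 12 of 41 rose, 11 fell, 1 was kept and 17 were not called. The secreted antagonists changed over. SFRP2 fell from 482 and 425 CPM to 4.48 and 7.53 (-6.23 ± 0.33, adjusted p = 6.55e-08), and SFRP1 fell by 3.70 on the log2 scale. SFRP5, a marker of ventral foregut, rose from 0.950 and 1.66 CPM through 0.258 to 0.417 to 113 and 121 (6.47 ± 0.35, adjusted p = 7.16e-08), and FRZB rose by 4.65. The target AXIN2 was at 10.4 and 12.7 CPM in hESC, at 30.4 to 35.0 in endoderm and at 5.01 and 2.77 in foregut (-1.58 ± 0.32).

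BMP genes were higher on balance, with 11 of 22 up, 1 down, 1 kept and 9 not called (median 1.38). BMP4, the ligand, was higher in endoderm and foregut than in hESC (foregut 32.2 and 34.0 CPM, log2 difference 3.73 ± 0.38). Of the type I receptors, BMPR1B rose by 5.69 and BMPR1A fell by 1.61 on the log2 scale. In the Hedgehog pathway, 4 of 13 rose and 4 fell. The ligands SHH, at 6.40 and 6.58 CPM in foregut, and IHH, at 13.9 and 18.2, rose. The transcriptional effectors GLI1 and GLI2 fell, GLI2 from 20.7 and 26.4 CPM to 0 and 1.08 (-5.36 ± 0.79). The receptor PTCH1 fell (-1.46 ± 0.29), and SMO, the signal transducer, was kept at 126 and 105 CPM in hESC and 105 and 131 in foregut, with 44.3 to 53.0 in endoderm. Of 19 Notch genes, 6 rose and 3 fell, and the target HES1 was among those that rose (22.9 and 19.3 to 118 and 140.1 CPM). The calls of DLL1 and DLL3 (higher) and NOTCH1 (lower) were lost without either hESC library. That of LFNG (lower) was lost without hESC replicate 1.

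**Figure D4:**
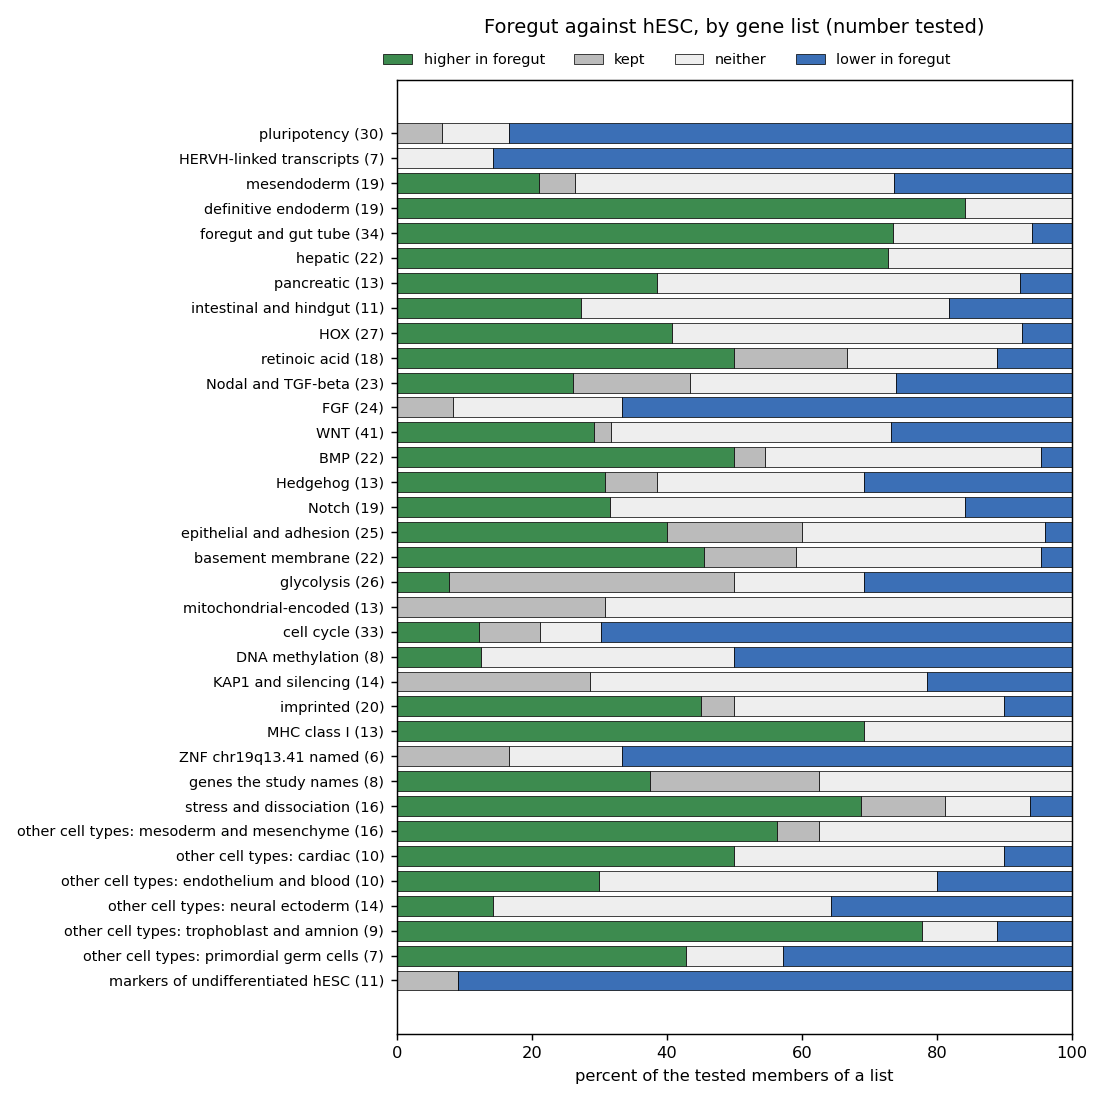
Percent of the tested genes of each list (x axis) that were higher, kept, not called either way or lower in foregut than in hESC, for lists with at least 6 tested genes (y axis). Pluripotency, FGF and cell cycle genes lie mostly on the lower side, and definitive endoderm, foregut and hepatic genes mostly on the higher side.

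Epithelial and matrix genes were gained on top of an epithelium that hESC already have. Of 25 epithelial and adhesion genes, 10 rose, 1 fell, 5 were kept and 9 were not called. KRT8, a simple epithelial keratin, was at 316 and 336 CPM in hESC, at 1058 to 1379 in endoderm and at 6633 and 10818 in foregut (4.74 ± 0.27, adjusted p = 1.02e-07). KRT18, its partner, did not pass the test at day 3 and rose from 449 and 445 to 4476 and 4486 CPM. VIM, the intermediate filament of migrating cells, was already high in endoderm, with 102 and 107 CPM in hESC, 1442 to 2177 in endoderm and 2192 and 1892 in foregut. EPCAM, an adhesion molecule of epithelia and hESC, was kept, at 455 and 296 CPM in hESC and 426 and 305 in foregut, with 138 to 178 in endoderm (-0.04, 95% interval -0.59 to 0.52). CLDN6, an embryonic tight junction protein, was kept in the same way, at 1378 and 970.3 CPM in hESC, 245 to 407 in endoderm and 1433 and 1468 in foregut. CDH1 was not called (0.65 ± 0.32). Of 22 basement membrane genes, 10 rose, 1 fell and 3 were kept, and HSPG2, which encodes perlecan, rose by 3.22 on the log2 scale.

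Several groups outside the endoderm programme also rose. IGF2 (ENSG00000167244, chromosome 11, 2150342 to 2179621), the imprinted fetal growth factor, was at 0.432 and 1.14 CPM in hESC, at 5.05 to 7.64 in endoderm and at 4498 and 4951 in foregut (12.54 ± 0.44, adjusted p = 1.01e-08). H19, the neighbouring imprinted RNA, was at 3.20 and 2.48 CPM in hESC, at 1.49 or less in endoderm and at 1094 and 1270.5 in foregut (8.70 ± 0.31). Of 20 imprinted genes, 9 rose, 2 fell, 1 was kept and 8 were not called. Of 13 genes of MHC class I presentation, 9 rose, 0 fell and 4 were not called (median 1.64). Of the 9 calls, 5 remained without hESC replicate 2, when those of HLA-E, PSMB8, PSMB9 and IRF1 were lost (adjusted p 0.0511 to 0.144), and 6 without hESC replicate 1. HLA-B was at 12.0 and 10.4 CPM in hESC, at 17.3 to 19.7 in endoderm and at 407 and 766 in foregut (5.71 ± 0.33, adjusted p = 1.18e-07), although HLA genes share reads with close copies. B2M, the common light chain, rose from 94.5 and 73.4 to 210.1 and 200.2 CPM (1.29 ± 0.22). Of 16 genes of stress and cell dissociation, 11 rose and 1 fell, and JUN, an immediate early factor, went from 4.10 and 3.37 through 12.4 to 27.7 to 60.1 and 68.9 CPM. The summed level of that list overlapped, at 1152 and 992 CPM in hESC, 1335 to 2071 in endoderm and 1151 and 1058 in foregut.

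Markers of other cell types moved with the foregut genes, and their part in the results was not tested. Of 16 genes of mesoderm and mesenchyme tested, 9 were higher in foregut and 0 lower, and the list summed to 75.9 and 64.4 CPM in hESC, 391 to 557 in endoderm and 669 and 789 in foregut. COL1A1, the main fibrillar collagen, was at 10.4 CPM or less in hESC, at 20.8 to 33.3 in endoderm and at 251 and 234 in foregut (4.88 ± 0.34). The mesenchymal factor PRRX1 had too few reads to test. Of 10 cardiac genes, 5 rose and 1 fell, with sums of 2.89 and 4.99 CPM in hESC and 41.2 and 72.0 in foregut, and NPPB, a natriuretic peptide outside the list, rose from 0 to 100.4 and 98.6. Of 10 genes of endothelium and blood, 3 rose and 2 fell, and the sums of 79.7 and 84.4 CPM in hESC and 74.7 and 87.8 in foregut overlapped. Within it CDH5, the cadherin of endothelium, rose to 30.5 and 31.6 CPM from 0.0432 and 0.244, and PTPRC of blood cells had too few reads to test. Of 9 trophoblast and amnion genes tested, 7 rose and 1 fell, and the sum went from 16.7 and 22.2 to 216 and 244 CPM. KRT7 and IGFBP3, described below, held most of the foregut sum. HAND1 is in the cardiac list as well and ISL1 in the foregut list, and the call of CGA was lost without either hESC library. Of 14 neural genes, 5 fell and 2 rose. The genes that rose were DCX and SOX10, and both calls were lost without either hESC library. SOX1, an early neural factor, was at 3.41 and 3.74 CPM in hESC and at 0 in foregut.

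Genes that were kept included housekeeping and glycolysis genes. Among protein-coding genes, the narrowest intervals were those of abundant housekeeping genes, many of which have processed copies that can share reads. ACTG1, a cytoplasmic actin, was at 4706 and 4768 CPM in hESC, at 8555 to 9030 in endoderm and at 5691 and 5809 in foregut (0.28 ± 0.16). RPSA, a ribosomal protein, was at 1770 and 1622 CPM in hESC and at 1655 and 1865 in foregut (0.05 ± 0.18). BTF3, EEF2, RACK1, RPS3, RPS14, RPL11, RPS23 and GAPDH made up the rest of the 10 narrowest, all with log2 differences between -0.14 and 0.52. Of 26 glycolysis genes, 11 were kept, 8 fell, 2 rose and 5 were not called, and 20 were high in endoderm alone. PDK1, the kinase that turns pyruvate away from mitochondria, was at 18.2 and 14.9 CPM in hESC, at 736, 434 and 423 in endoderm and back at 12.2 and 16.6 in foregut (-0.19, 95% interval -0.83 to 0.44). BNIP3, a hypoxia-induced mitophagy receptor, was at 43.8 and 42.2 CPM in hESC, at 775 to 1354 in endoderm and at 55.6 and 40.9 in foregut. The glucose transporters SLC2A1 and SLC2A3 ended below hESC (-2.07 ± 0.31 and -1.77 ± 0.25), and the lactate exporter SLC16A3 ended above it, at 65.7 and 89.4 CPM against 2.63 and 1.42.

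Genes shared by hESC and foregut but low in day 3 endoderm numbered 607 (2.71% of genes tested), of which 564 were protein-coding. They were defined as genes called lower in endoderm than in hESC and higher in foregut than in endoderm, so both of those differences are description. Between foregut and hESC, 178 of the 607 were higher in foregut, 47 lower and 382 not called, of which 102 were kept. The median log2 differences were -1.93 from hESC to endoderm, 2.34 from endoderm to foregut and 0.34 from hESC to foregut. The count was 334 without hESC replicate 1 and 373 without hESC replicate 2. Foregut and endoderm of the cultures in which dCAS9-KRAB and an sgRNA repressed LTR5 elements gave other libraries, 2 of foregut and 3 of endoderm, that the rule had not used. In them 501 of the 607 were higher in foregut than in endoderm, where 13.6% of 23403 genes were, and 4 were lower and 102 not called. Low counts were shifted upwards in those foregut libraries too. Among counts of 4 or more, the most frequent integrant count was 11 and 26, and 17378 and 15005 genes were read. That contrast tests only the second of the differences, since the repressed cultures have no hESC of their own. Its 2 foregut libraries were taken by their titles, although their status label says endoderm without an sgRNA.

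DPYSL5 (ENSG00000157851, chromosome 2, 27070615 to 27173219), which binds tubulin in growing neurites, had the pattern and was not called between its ends. It was at 66.4 and 84.98 CPM in hESC, at 1.51, 5.37 and 4.91 in endoderm and at 95.3 and 101 in foregut (both foregut libraries above hESC, foregut against hESC 0.37 ± 0.39, against endoderm 4.64 ± 0.39). MAP1A, a microtubule-associated protein, was at 8.46 and 16.8 CPM in hESC, at 0.352 to 0.646 in endoderm and at 19.5 and 16.3 in foregut. APELA, the peptide hormone of the apelin receptor, was at 15.1 and 22.3 CPM in hESC, at 0 to 0.649 in endoderm and at 11.6 and 7.43 in foregut. In this group the foregut and hESC levels did not pass the test of a difference. APOB, SPTSSB and PLXNC1 were alike in this.

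In other genes of the pattern, foregut overshot hESC. KRT7, a keratin of ducts and amnion, was at 6.78 and 7.96 CPM in hESC, at 0 to 0.185 in endoderm and at 38.3 and 89.1 in foregut (3.11 ± 0.43, adjusted p = 9.45e-05). IGFBP3, which binds insulin-like growth factors, was at 4.79 and 6.90 CPM in hESC, at 0.151 to 0.556 in endoderm and at 105 and 86.2 in foregut (4.03 ± 0.37). MX1, an interferon-induced GTPase, was at 2.76 CPM or less in hESC, at 0 to 0.151 in endoderm and at 43.8 and 48.5 in foregut (4.51 ± 0.46). ABCG1, a cholesterol exporter, rose in the same way. The gene ENSG00000117289, which the annotation used here does not place, went from 13.5 and 10.1 through 0.388 to 0.834 to 158 and 138 CPM. For LRRC4 and PDE3A the call of foregut over hESC was lost without either hESC library (adjusted p 0.0645 to 0.162). DYNLT5 and SIM1, which rest on 0 to 0.777 CPM in hESC, lost the pattern itself when 1 library was left out.

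List members in this pattern included SOX2, EPCAM, CLDN4, CLDN6, CLDN7, ESRP2, VIL1, SERPINF1, MTTP, AMBP, DHRS3, TGFB2, SFRP5, SMO and H19. DYSF, a membrane repair protein, was kept at 18.9 and 20.9 CPM in hESC and at 16.6 and 17.8 in foregut, with 3.81 to 6.49 in endoderm. Of 13 protein-coding mitochondrial genes, 7 were in the pattern, 4 were kept and none was called between foregut and hESC. Mitochondrial genes held 25.5% and 16.9% of gene reads in hESC, 8.30 to 14.4% in endoderm and 29.0% and 17.6% in foregut, and with them left out of the counts the pattern held 651 genes.

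**Figure D5:**
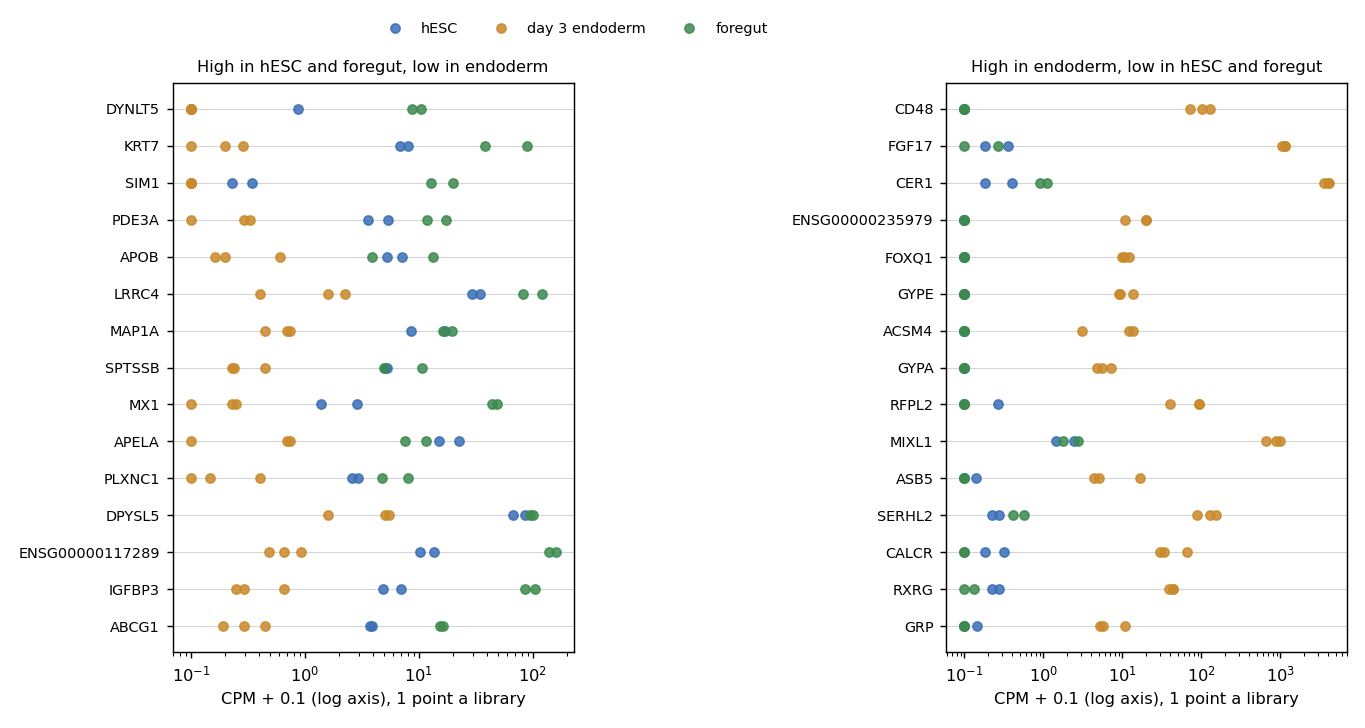
CPM on a log axis (y) of 15 genes low in endoderm and 15 genes high in endoderm, with 1 point per library of hESC, endoderm and foregut. For each gene endoderm was called against both other groups, as the choice of the genes sets. Single points need not stand apart, as for DYNLT5 and SIM1, which are low in hESC.

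The mirror pattern, high in endoderm and low at both ends, held 922 genes (4.11%), of which 152 were higher in foregut than in hESC, 176 lower and 594 not called, 143 of these being kept. The count was 563 without hESC replicate 1 and 607 without hESC replicate 2. In the LTR5-repressed cultures 802 of the 922 were lower in foregut than in endoderm, against 16% of all genes, 120 were not called and 0 were higher. CER1, a secreted inhibitor of Nodal and WNT, was at 0.302 and 0.0812 CPM in hESC, at 3993, 3575 and 4151 in endoderm and at 0.995 and 0.794 in foregut. FGF17 was at 1061 to 1144 CPM in endoderm and at most 0.259 elsewhere. MIXL1, a homeobox factor of the primitive streak, was at 2.33 and 1.34 CPM in hESC, at 650.2 to 987 in endoderm and at 1.69 and 2.61 in foregut. CD48, a surface protein known from leukocytes, was at 71.7, 101 and 127 CPM in endoderm and unread in hESC and foregut. Of 19 mesendoderm genes, 17 had this pattern.

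Of 1081 TE subfamilies tested, 191 were higher in foregut than in hESC (17.7%) and 55 lower (5.09%), at an adjusted p under 0.05. The median subfamily was 0.625 higher on the log2 scale. That split depends on scaling. With TMM factors taken from the subfamilies themselves the counts were 97 higher and 95 lower with a median of -0.0165, and with DESeq2's own factors 85 and 119 with a median of -0.121. Counts of higher subfamilies were 97 without hESC replicate 1, 49 without hESC replicate 2 and 382 without FG_ctl replicate 2. Lower ones numbered 21, 20 and 111 in the same order, and 129 without FG_ctl replicate 1. Of 59372 integrants, 782 were higher (1.32%) and 426 lower (0.718%), and these also moved, to 8629 higher and 658 lower without FG_ctl replicate 2, 2142 higher without FG_ctl replicate 1, and 459 and 311 higher without hESC replicate 1 and 2. TE groups are thus described by their levels in each library.

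In summed reads, the LTR5 family, which flanks the HERVK provirus, split by subfamily. LTR5_Hs, the youngest, was at 18.9 and 20.1 CPM in hESC, at 18.6 to 19.2 in endoderm and at 9.85 and 8.32 in foregut (-1.10 ± 0.31, adjusted p = 0.0199). That call was lost without either hESC library, and the difference was 0.0291 over integrants of the single name. Without exon-overlapping integrants the difference was -0.365 and the call was lost. An exon-overlapping element at chr22:18926187-18935361 held 42.86% of the hESC level of LTR5_Hs. LTR5A was at 5.53 and 4.91 CPM in hESC, at 38.6, 47.2 and 66.4 in endoderm and at 59.0 and 54.8 in foregut (3.44 ± 0.36, adjusted p = 1.18e-05). HERVK-int went with LTR5A, from 15.6 and 17.1 through 48.2 to 76.5 to 59.2 and 54.0 CPM (1.79 ± 0.33). Reads of integrants that carry both names count for each, so LTR5A and HERVK-int are not independent. LTR5B was higher too (2.41 ± 0.41, adjusted p = 0.00131). The called integrant with the largest fitted log2 rise carries both names, a HERVK-int and LTR5A element at chr4:4075831-4077040, 113413 bases from OTOP1. It had no read in hESC, 2.81, 2.08 and 3.04 CPM in endoderm and 22.3 and 23.8 in foregut, at least 367-fold above hESC, and it held 40.7% of the foregut level of HERVK-int and 40.6% of that of LTR5A. The rank rests on 0 hESC reads and was closely followed by an L1MC4 element on chromosome 7 (at least 365-fold), and the LTR6A element described next gained more in level. The opening 120 bases of the HERVK-int and LTR5A element are printed because it is the first by that rank:
chr4:4075831-4075950 (+): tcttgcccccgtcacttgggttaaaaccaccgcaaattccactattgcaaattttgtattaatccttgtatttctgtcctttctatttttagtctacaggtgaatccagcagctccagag

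Several subfamily changes rested on few integrants. LTR6A, a repeat of the HERVS71 group, was at 3.32 and 3.13 CPM in hESC, at 496, 352 and 432 in endoderm and at 535 and 271 in foregut (6.96 ± 0.45, adjusted p = 7.31e-08). The element at chr18:47931542-47935100 held 95.6% of its foregut reads, at 508 and 261 CPM against 0.259 and 0.568 in hESC. LTR6B of the same group was high in endoderm alone, at 293 to 471 CPM. HERVIP10B3-int was at 4.32 and 6.70 CPM in hESC, at 9.82 to 11.7 in endoderm and at 483 and 391 in foregut (6.31 ± 0.40). Of its foregut level, 59.3% lay in an exon-overlapping element at chr6:35529339-35533914. The next elements by level overlap exons too, at chr6:35534186-35535108 (118.9 and 88.9 CPM in foregut) and chr6:118897874-118899612 (35.86 and 32.14). LTR7Y fell from 968 and 1137 CPM to 64.7 and 40.1, but 93.8% of its hESC reads came from chr6:114743465-114749461, which overlaps an exon, and its log2 difference was 0.17 without exon-overlapping integrants. LTR7B, at 19.8 and 18.6 CPM in hESC and 56.9 and 38.8 in foregut, was higher (1.32 ± 0.32), a call lost without either hESC library and with factors from the TE reads (0.655). LTR17, of the HERVW group, fell from 40.8 and 40.6 CPM to 7.76 and 9.48 (-2.24 ± 0.31), with 76.7% of its hESC reads in 1 integrant at chr5:12660494-12661271.

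Among the young mobile groups, SVA_D was at 12.7 and 14.7 CPM in hESC, at 14.0 to 16.5 in endoderm and at 53.2 and 48.3 in foregut (1.89 ± 0.31, adjusted p = 0.00091), which was called under every scaling tried. SVA_A, SVA_B, SVA_C and SVA_E were higher too (1.01 to 1.58). Those calls were lost with factors from the TE reads, with DESeq2's own factors and without either hESC library. SVA_F was not called. L1HS, the active human LINE-1, was at 5.48 and 9.46 CPM in hESC and at 17.4 and 13.6 in foregut and was not called (1.05 ± 0.39, adjusted p = 0.0678), nor were L1PA2 to L1PA6. L1PA7 rose (1.67 ± 0.33).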

How the data were processed

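RNA-seq of H9 hESC (2 libraries), day 3 endoderm (3) and foregut (2) was analysed. The authors aligned stranded poly(A) reads to hg19 with HISAT2 and deposited raw counts per gene and per TE integrant from featureCounts. Whether counting used strand is not given in the sources used here, so overlapping antisense genes cannot be told apart. Gene reads per library, the precision they give and the shifted low counts of foregut are described above.

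Counts were fitted with edgeR 4.0.16 (R 4.3.3) over the 7 libraries, with features kept at 3 or more reads in 1 library, and p-values were adjusted by Benjamini-Hochberg over all features. TE counts used the gene library sizes and TMM factors. An integrant of several names counted for each, subfamilies were called by adjusted p alone, and integrant tests left out those overlapping an exon. limma 3.58.1 (voom), DESeq2 1.42.0, other factors, filters and left-out libraries were alternatives. Of 63677 gene IDs, 55665 were in GENCODE; TE and gene positions are GRCh37. The fit was tested on simulated data. Members and gene lists were chosen with earlier results of these data known. Named were list members, the 15 largest rises and falls, the 15 clearest genes of each pattern, the 10 narrowest kept genes and the 5 largest TE changes each way. Gastruloid samples were not analysed here. Some genes and sequences are not reported here.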

Additional observations from a re-analysis of the deposited data

How the results depend on the processing

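Counts are given in the order genes higher, genes lower, kept, low in endoderm and high in endoderm (3932, 4155, 2272, 607 and 922), then subfamilies higher and lower (191 and 55) and integrants higher and lower (782 and 426). Gene counts stayed within 1.5 times under voom, DESeq2, other factors and filters, except that a kept limit of 0.5 left 16. The TE counts moved. Voom gave 85 subfamilies lower and 3307 and 2233 integrants. DESeq2 with its own factors gave 85 and 119 subfamilies, and TMM factors of the subfamilies gave 97 and 95. The 4 libraries alone gave 82 and 21 subfamilies and 243 integrants lower, and all 12 bulk libraries gave 127 and 32 subfamilies and 279 and 196 integrants. At least 10 reads in 2 libraries gave 3322 and 741 integrants, and unadjusted p gave 3101 and 1025. Without exon-overlapping integrants 33 subfamilies were lower. Dividing foregut counts by their modal count, an alternative added after the data were seen, gave 1389 and 261 integrants. The causes were not tested. Voom moved the median gene to -0.282 and the modal count to -0.191, and without FG_ctl replicate 1 or 2 it was -0.111 or -0.195.

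Leaving out each library in turn gave 2744 to 4985 genes higher, 3183 to 4914 lower, 1183 to 2555 kept, 334 to 765 low in endoderm and 563 to 1221 high in endoderm. Subfamilies ranged from 49 to 382 higher and 20 to 129 lower, and integrants from 311 to 8629 higher and 321 to 658 lower. Uncalled features turned in sign without 1 foregut library, where leave-one-out values ran from -4.85 to 2.34 for FGF18, -5.28 to 2.27 for NOTUM, -5.75 to 1.82 for GREM1, -4.26 to 1.71 for MFNG and -5.92 to 1.96 for HERV9N-int. Without exon-overlapping integrants the lower calls of LTR7Y (0.17), THE1C (0.837), THE1C-int (0.913) and MSTA (0.104) reversed in sign, as did the uncalled HERV17-int (2.14). Over single-name integrants the lower calls of LTR7Y (2.11), LTR5_Hs (0.0291), HERV9NC-int (3.5), LTR12C (0.701), THE1C (1.23) and THE1C-int (3.48) reversed, as did the uncalled LTR21B (-5.26).

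Replicate numbers did not pair the samples. Deviations of same-numbered hESC and foregut libraries correlated at -0.0374, those of hESC and endoderm at 0.0345 and 0.0381, and those of endoderm and foregut at 0.159 and 0.133. With the replicate block the counts were 3535, 3866, 1997, 446 and 812 for genes, 189 and 39 for subfamilies and 411 and 313 for integrants.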
